A study of Homo sapiens with 6 samples.

Results

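Interferon signalling in DU 145 cells was described through 45 genes, taken by symbol from a table of 24305 genes. They comprise 4 interferon receptor chains with the kinase JAK1, 4 transcription factors (STAT2, IRF1, IRF7 and IRF9), and the interferon-stimulated genes, which are grouped here by what their proteins do. A total of 37 of the 45 had enough counts to be tested, and 8 did not.

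DU 145 is an established human cell line from castration-resistant prostate cancer, labelled here as prostate epithelial cells. It was grown for 48 h with talazoparib, an inhibitor of PARP1 and PARP2, or in a control group, with 3 libraries in each group. The label of the control group says "DMOS", read here as a slip for DMSO, the usual solvent. The design names doses of 5, 10 and 20 µM and describes the line as deficient in homologous recombination repair; which dose was sequenced is not stated in the labels, and all libraries come from this 1 line. Separate cultures are not stated for the replicates, so each p-value rests on a spread between libraries that may be technical only.

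Type I interferons bind the receptor chains IFNAR1 and IFNAR2, and interferon gamma binds IFNGR1 and IFNGR2. Janus kinases on these receptors phosphorylate STAT proteins. A complex that holds STAT2 and IRF9 binds the interferon-stimulated response element (ISRE), and the gamma-activated site (GAS) is a further element of interferon-stimulated promoters. Both turn on genes whose products block viral replication, mark proteins with ISG15 or damp the signal. In tumour cells the same genes can be switched on by DNA or RNA in the cytosol and can also be transcribed at a basal level without added interferon.

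Library totals lay between 39123997 and 39585727 counts. The summed level of 6 epithelial markers was 1172 to 1275 CPM (counts scaled to the library total for these marker lists, and to TMM-adjusted library sizes for single genes) with talazoparib and 1100 to 1307 CPM in control libraries. KRT8 and KRT18 gave most of that sum. KRT19 had 3286 to 3781 counts with talazoparib and 1600 to 1846 in control libraries. CLDN4 had 382 to 519 counts with talazoparib and 82 to 177 in control libraries. The counts of the other epithelial markers overlapped between groups. PTPRC and CD3E, which define leukocytes, had no count in any library. The leukocyte list of 7 measured genes summed to 64.6 to 69.4 CPM with talazoparib and 26.3 to 28.8 CPM in control libraries, mostly from CD68, a lysosomal protein gene. The fibroblast and endothelial list summed to 2.61 to 3.31 CPM with talazoparib and 2.60 to 3.09 CPM in control libraries. The libraries also differed along the GC content of genes. Over all genes, the median log2 fold change of talazoparib over control was -0.73 for the decile lowest in GC content and 0.43 for the decile highest in it. Libraries of 1 group differed the same way: control replicate 1 minus the mean of control replicates 2 and 3 ran from -0.22 to 0.18 between those deciles, and talazoparib replicate 2 minus the mean of talazoparib replicates 1 and 3 from -0.44 to 0.11. For this reason most fold changes are given together with the value after removal of the trend over GC content and gene length (called trend-removed). Which of these values lies nearer to a response to the drug was not tested.

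With talazoparib, 17 of the 37 tested genes rose, 11 fell and 9 did not pass the test (edgeR quasi-likelihood test, Benjamini-Hochberg adjusted p under 0.05 over 14452 genes). That is 45.9% higher and 29.7% lower, against 26.8% and 29.9% of all genes tested, and 75.7% called in either direction, against 56.7%. A log2 change of at least 0.5 in size was found for 14 of the genes that rose, against 11.6% of all genes, and for 5 of those that fell, against 22.8%. The median log2 fold change over the 37 genes was 0.37, against 0.00 over all genes. Talazoparib and control values were fully apart for 31 genes (83.8%), against 64.4% of all genes. Rises of at least 2-fold were found for 6 genes (LGALS3BP, OASL, IFITM2, IFI6, ISG20 and IFI35), against 2.75% of all genes, and a fall of at least 2-fold for IFIT5, against 9.75%. Trend-removed, 18 genes rose and 4 fell, against 22.0% and 22.2% of 13718 genes, with a median of 0.24. In both fits 13 genes rose and 4 fell, and the share of all genes called alike in both is not given here. Without control replicate 2, 7 of the tested genes fell, against 11 with all libraries, and IFIT1 and OAS3 lost the higher call. Over all genes that fit called 2715 of 14630 higher and 3752 lower. With all libraries 3873 and 4327 of 14452 were called. In these bulk libraries fewer cells that express a gene and less RNA per cell cannot be told apart.

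**Figure D1:**
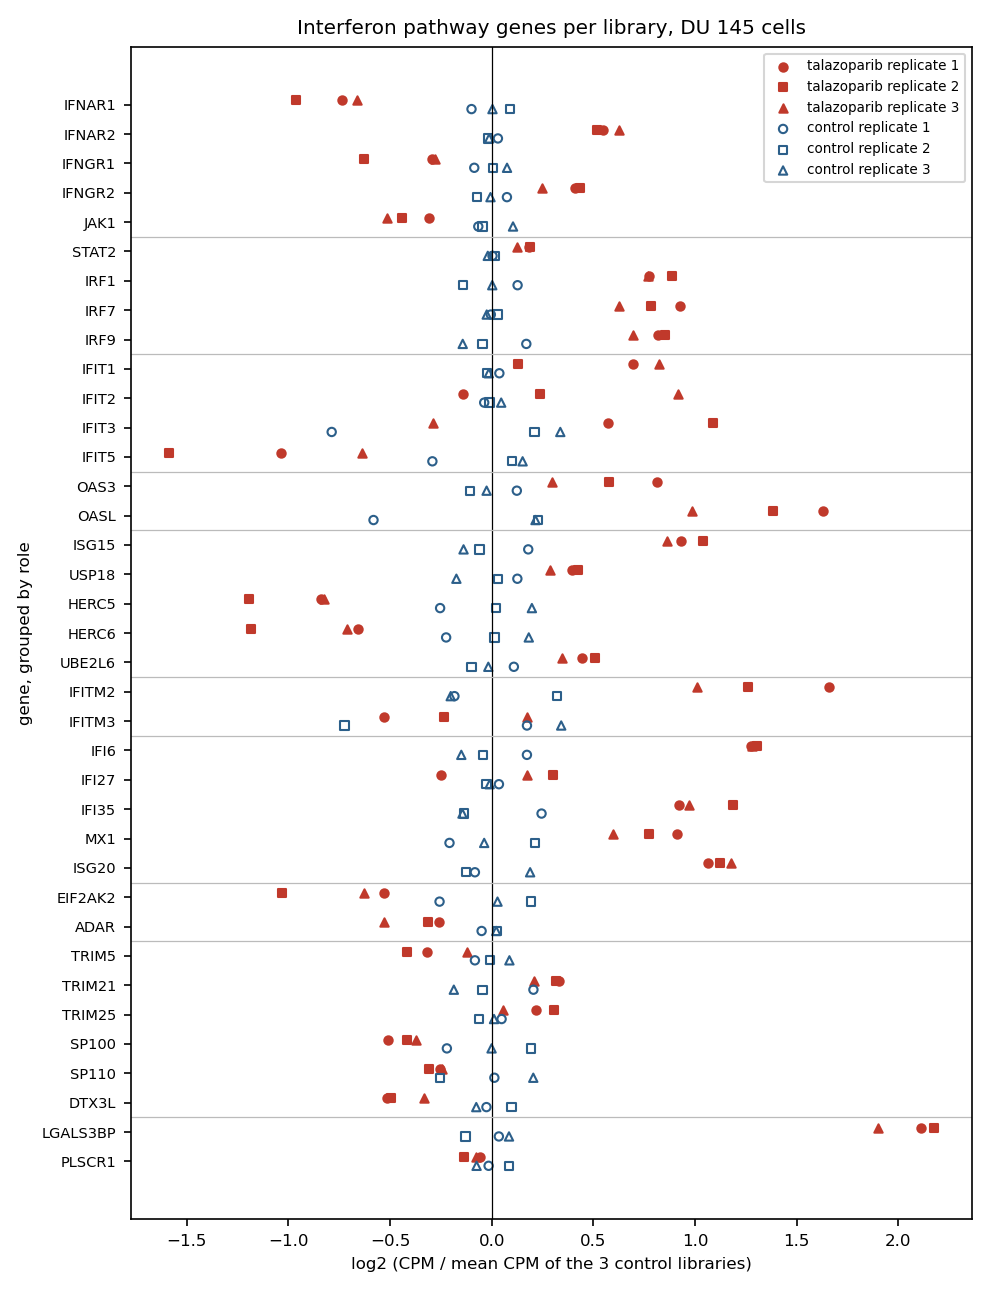
Level of each tested gene in each library, as log2 of its CPM over the mean CPM of the 3 control libraries (x axis), with genes down the page grouped by role. Filled red symbols are the 3 talazoparib libraries and open blue symbols the 3 control libraries, with 1 symbol shape per replicate number; LGALS3BP stands farthest to the right, and IFIT3, IFITM3 and IFI27 show overlapping groups.

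**Figure D2:**
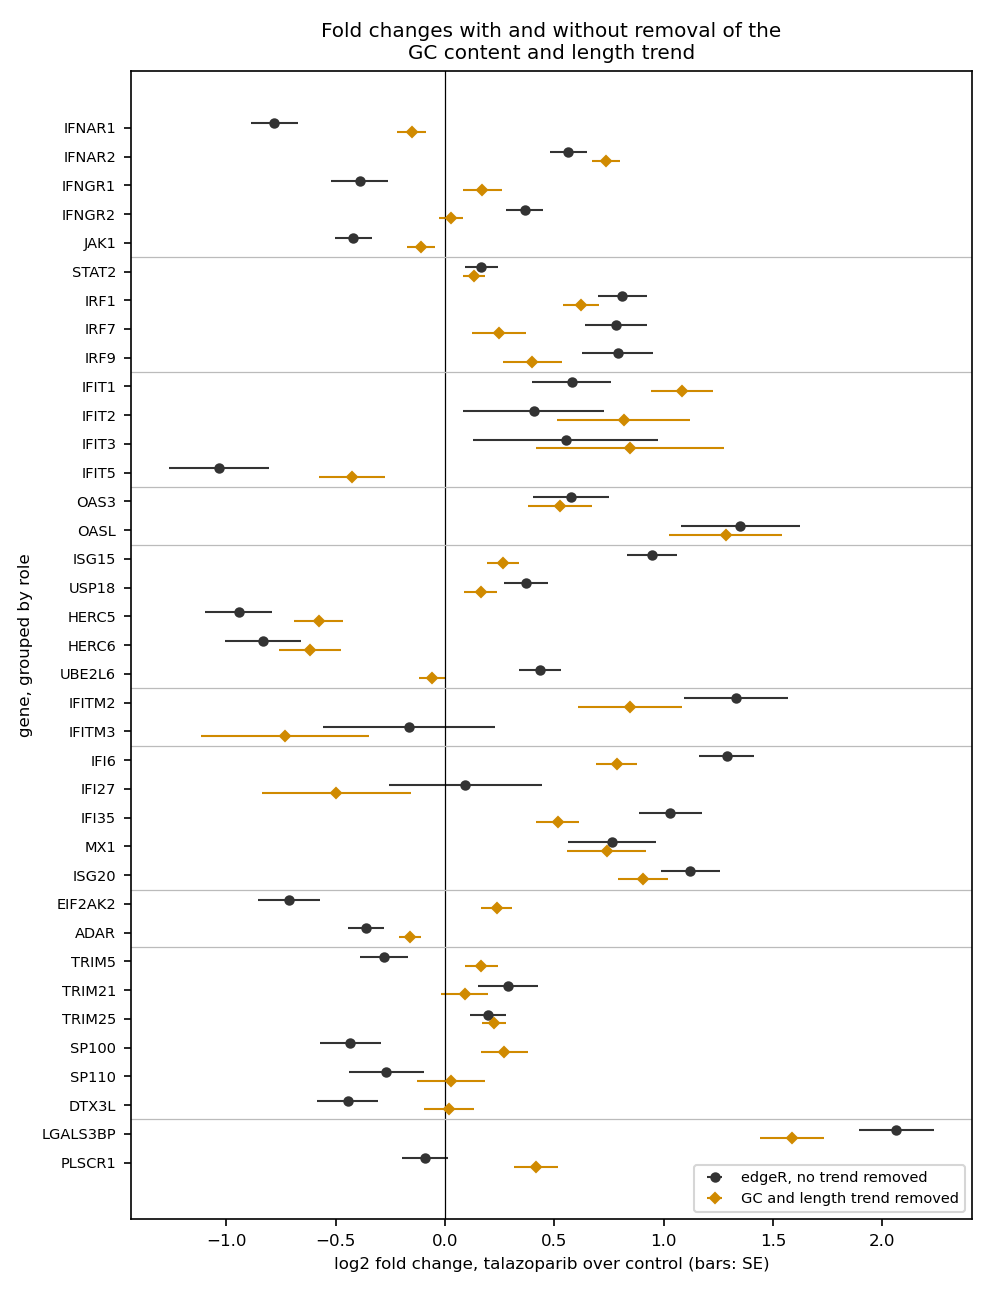
Log2 fold change of talazoparib over control for each tested gene (x axis), with its SE, before and after removal of the trend over GC content and length. EIF2AK2 lies at -0.71 before and 0.24 after removal, while LGALS3BP lies at 2.06 and 1.59.

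Promoters are shown first, because the ISRE is a sequence through which interferon-stimulated genes can answer interferon. No answer to interferon was measured here. RefSeq promoter windows (GRCh38.p14, 250 bases before to 50 after the gene start, on the gene's strand) were matched for 38 of the 45 genes, not for IFNAR2, IRF7, IFIT2, OAS2, OASL, USP18 and IFITM2. The core searched for was GAAA, any 2 bases and GAAA again, or on the opposite strand TTTC, any 2 bases and TTTC. It was present in 22 of the 38 windows (57.89%), against 1255 of 35116 windows of all genes (3.57%). For the 12 genes that hold the core and passed the test, only the core nearest the start is shown, in capitals, with 10 bases to each side. IFI6, IFIT5 and HERC5 held 3 cores each, and ISG15, OAS3 and IFIT1 held 2 each. In ISG15, IFIT1 and IFIT5 some lower-case letters belong to a further core. The 7 genes that rose are given first and then the 5 that fell.
LGALS3BP, chr17:78979962-78979991, minus strand: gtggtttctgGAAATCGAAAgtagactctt
IFI6, chr1:27672266-27672295, minus strand: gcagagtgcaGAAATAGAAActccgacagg
ISG20, chr15:88638937-88638966, plus strand: taacaaactaGAAACTGAAAcagggtcggg
ISG15, chr1:1013380-1013409, plus strand: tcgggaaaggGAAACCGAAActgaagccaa
MX1, chr21:41420559-41420588, plus strand: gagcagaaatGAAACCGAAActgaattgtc
OAS3, chr12:112938452-112938481, plus strand: agccgggcggGAAAACGAAAccagaaatcc
IFIT1, chr10:89392510-89392539, plus strand: cactttccccTTTCGGTTTCcctaggtttc
IFIT5, chr10:89414554-89414583, plus strand: atttcttaagTTTCAGTTTCtgagcgctcg
HERC5, chr4:88457035-88457064, plus strand: aaacattatgTTTCGTTTTCcactggagct
EIF2AK2, chr2:37156967-37156996, minus strand: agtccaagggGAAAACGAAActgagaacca
DTX3L, chr3:122564322-122564351, plus strand: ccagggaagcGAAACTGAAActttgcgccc
TRIM5, chr11:5685082-5685111, minus strand: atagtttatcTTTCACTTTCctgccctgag

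Genes with and without the core were found on both sides of the comparison. Of the 17 tested genes with the core, 7 rose and 5 fell, and their median log2 fold change was 0.29 (trend-removed 0.26). Of the 14 tested genes whose window lacked it, 5 rose and 6 fell, with a median of -0.051 (trend-removed 0.081). Over all genes tested 26.8% rose and 29.9% fell, and before the trend was removed the share of falls among genes with the core was close to that. Trend-removed, 9 of the 17 genes with the core rose and 2 fell. Of the 14 without it 5 rose and 2 fell, against 22.0% and 22.2% of all genes. The core shown began 107 bases before the start of ISG15, 58 before that of LGALS3BP and 6 before that of EIF2AK2. The GAS letters TTCNNNGAA, which read the same on both strands, were present in 8 of the 38 windows (21.05%), against 2689 of 35116 (7.66%). Among the 5 of these 8 genes that were tested, IRF1 (TTCCCCGAA, 124 bases before the start), IRF9 (TTCTGGGAA, 63 bases before) and IFI35 (TTCACGGAA, 22 bases before) rose, and 2 did not pass the test. In IFITM1, IFI27 and BST2 the ISRE and GAS letters overlap. A match of letters is a description of the window and does not show that a factor binds there.

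The receptor chains moved in both directions. IFNAR1, one chain of the type I receptor, had 22.3, 19.0 and 23.4 CPM with talazoparib, against 34.6, 39.4 and 37.1 CPM in control libraries. Every talazoparib library lay below every control library. The log2 fold change was -0.78 ± 0.11 (SE; adjusted p = 8.76e-05), and trend-removed it was -0.15 (adjusted p = 0.0856). IFNAR2, the other type I chain, had 40.9, 40.1 and 43.2 CPM with talazoparib, against 28.6, 27.6 and 27.7 CPM in control libraries. It was higher in 3 of 3 talazoparib libraries, by 0.56 ± 0.09 (adjusted p = 0.000188), and by 0.74 trend-removed (adjusted p = 1.04e-05). IFNAR2 shares 43.1% of its 50-base words with the annotated readthrough transcript AP000295.1, and 39.1% of its exon bases lie opposite IL10RB-DT, so the authors' counting may have split or mixed its reads.

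The interferon gamma receptor chains also differed in direction before the trend was removed. IFNGR1, the ligand-binding chain, averaged 12.7 ± 1.66 CPM with talazoparib and 16.6 ± 0.926 CPM in control libraries (SD, n = 3 each), with a log2 fold change of -0.39 (adjusted p = 0.0207). IFNGR2, the signalling chain, averaged 69.8 ± 4.82 CPM with talazoparib and 54.2 ± 2.77 CPM in control libraries, with a log2 fold change of 0.37 (adjusted p = 0.0029). Neither passed the test trend-removed, at 0.17 for IFNGR1 (adjusted p = 0.146) and 0.028 for IFNGR2 (adjusted p = 0.715). The IFNGR1 call was also lost without talazoparib replicate 2 (-0.28), control replicate 2 (-0.42) or control replicate 3 (-0.39). JAK1, the kinase bound to both receptors, averaged 70.8 ± 5.13 CPM with talazoparib and 94.7 ± 6.21 CPM in control libraries, at -0.42 ± 0.08 (adjusted p = 0.00122) and at -0.11 trend-removed (adjusted p = 0.182). IFNAR2, IFNAR1 and IFNGR2 are neighbours on chromosome 21, and they did not move together.

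The transcription factors were all higher in the talazoparib libraries, and 3 of 4 passed the test, where 26.8% of all genes tested rose. IRF1, an activator that is itself induced by interferon gamma, had 25.5, 27.5 and 25.3 CPM with talazoparib, against 16.2, 13.5 and 14.9 CPM in control libraries. The groups were well apart, with a log2 fold change of 0.81 ± 0.11 (adjusted p = 9.02e-05) and 0.62 trend-removed (adjusted p = 0.000133). IRF7, the factor that amplifies interferon alpha production, had 10.7, 9.73 and 8.72 CPM with talazoparib, against 5.64, 5.77 and 5.56 CPM in control libraries. It rose by 0.78 ± 0.14 (adjusted p = 0.000584), though not trend-removed, at 0.25 (adjusted p = 0.125). IRF9, the DNA-binding partner of STAT2, had 5.88, 6.03 and 5.40 CPM with talazoparib, against 3.76, 3.24 and 3.03 CPM in control libraries. Its log2 fold change was 0.79 ± 0.16 (adjusted p = 0.00145), and 0.40 trend-removed (adjusted p = 0.0315). STAT2, the STAT specific to type I and III signalling, averaged 71.8 ± 1.75 CPM with talazoparib and 64.0 ± 0.786 CPM in control libraries. The groups did not overlap, but its log2 fold change of 0.17 did not pass the test (adjusted p = 0.0736); trend-removed it was 0.13 (adjusted p = 0.0499). All the 50-base words of IRF9 are also in the readthrough gene AL136295.5, and 22.0% of the exon bases of IRF1 lie opposite C5orf56.

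The IFIT genes encode proteins that bind viral RNA, and they lie side by side on chromosome 10. IFIT1, which binds RNA that lacks the host's cap methylation, had 9.16, 6.19 and 10.0 CPM with talazoparib, against 5.81, 5.57 and 5.61 CPM in control libraries. All talazoparib libraries were above the control libraries, talazoparib replicate 2 by little. Its log2 fold change was 0.58 ± 0.18 (adjusted p = 0.0153) and 1.08 trend-removed (adjusted p = 0.000133). The call was lost without talazoparib replicate 1 (0.52), talazoparib replicate 3 (0.44), or control replicate 1 (0.56), 2 (0.54) or 3 (0.54). IFIT5, which binds RNA with a triphosphate end, had 3.07, 2.10 and 4.06 CPM with talazoparib, against 5.15, 6.76 and 7.01 CPM in control libraries. It was lower in 3 of 3 talazoparib libraries, at -1.03 ± 0.23 (adjusted p = 0.00222) and -0.43 trend-removed (adjusted p = 0.0399). IFIT2 and IFIT3, partners of IFIT1 in a complex, had means of at most 1.10 CPM in either group, overlapping groups and log2 fold changes of 0.41 (adjusted p = 0.301) and 0.55 (adjusted p = 0.283). Trend-removed, IFIT2 rose by 0.82 (adjusted p = 0.046) and IFIT3 was at 0.85 (adjusted p = 0.132).

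The oligoadenylate synthetase family makes the messenger that activates RNase L when double-stranded RNA is present. OAS3 had 7.73, 6.57 and 5.40 CPM with talazoparib, against 4.80, 4.09 and 4.33 CPM in control libraries. It was higher in 3 of 3 talazoparib libraries, by 0.58 ± 0.17 (adjusted p = 0.0125) and by 0.53 trend-removed (adjusted p = 0.0131). That call was lost without talazoparib replicate 1 (0.44), control replicate 2 (0.49) or control replicate 3 (0.53). OASL, a family member without synthetase activity in humans, had 3.41, 2.87 and 2.18 CPM with talazoparib, against 0.736, 1.29 and 1.28 CPM in control libraries. The groups were apart, with a log2 fold change of 1.35 ± 0.27 (adjusted p = 0.00115) and 1.28 trend-removed (adjusted p = 0.0019). OAS1 had 0, 0 and 1 counts with talazoparib and 0, 2 and 0 in control libraries, and OAS2 had 0, 2 and 0 counts with talazoparib and 2, 0 and 1 in control libraries, so neither was tested.

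In the ISG15 system the modifier itself rose while the HERC ligases fell. ISG15, a ubiquitin-like protein that is attached to other proteins and also secreted, had 33.1, 35.6 and 31.5 CPM with talazoparib, against 19.6, 16.6 and 15.7 CPM in control libraries. The log2 fold change was 0.95 ± 0.11 (adjusted p = 3.53e-05), and 0.26 trend-removed (adjusted p = 0.0114). HERC5, the main ISG15 ligase in human cells, had 8.96, 7.02 and 9.05 CPM with talazoparib, against 13.5, 16.3 and 18.4 CPM in control libraries. It was lower in 3 of 3 talazoparib libraries, at -0.94 ± 0.15 (adjusted p = 0.000282) and -0.58 trend-removed (adjusted p = 0.0015). HERC6, which is the ISG15 ligase of the mouse, had 6.12, 4.25 and 5.91 CPM with talazoparib, against 8.28, 9.76 and 11.0 CPM in control libraries. The 2 ligase genes adjoin each other on chromosome 4, and HERC6 fell by 0.83 ± 0.17 (adjusted p = 0.00154), trend-removed -0.62 (adjusted p = 0.00451). UBE2L6, the conjugating enzyme, had 39.3, 41.0 and 36.6 CPM with talazoparib, against 31.1, 26.9 and 28.5 CPM in control libraries, at 0.43 (adjusted p = 0.00209) and -0.060 trend-removed (adjusted p = 0.451). USP18, which removes ISG15 and damps type I signalling, averaged 42.5 ± 2.14 CPM with talazoparib and 32.8 ± 3.42 CPM in control libraries, at 0.37 (adjusted p = 0.00677) and 0.16 trend-removed (adjusted p = 0.099). The USP18 call was lost without control replicate 3 (0.25), and USP18 shares 23.0% of its 50-base words with USP41.

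Among the membrane restriction factors only IFITM2 was both tested and called. IFITM2, which blocks fusion of viruses with endosomes, had 4.74, 3.59 and 3.02 CPM with talazoparib, against 1.32, 1.87 and 1.30 CPM in control libraries. It rose by 1.33 ± 0.24 (adjusted p = 0.000525), and by 0.85 trend-removed (adjusted p = 0.0134). IFITM3, its close relative, had 0.391, 0.478 and 0.634 CPM with talazoparib, against 0.635, 0.341 and 0.713 CPM in control libraries, with overlapping groups (adjusted p = 0.741). IFITM1 had 4, 5 and 3 counts with talazoparib and 1, 6 and 0 in control libraries. BST2, the tetherin gene, had 0, 5 and 3 counts with talazoparib and 0, 1 and 0 in control libraries. IFITM2 shares 10.4% of its 50-base words with IFITM3 and 5.93% with IFITM1, so reads from these stretches are of uncertain origin.

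Of 5 tested genes among the IFI proteins, MX1 and ISG20, 4 rose and kept the call trend-removed. Over all genes 26.8% rose, and 22.0% trend-removed. IFI6, a small membrane protein that limits cell death and flavivirus replication, had 19.3, 19.8 and 19.4 CPM with talazoparib, against 9.01, 7.76 and 7.21 CPM in control libraries. The 3 talazoparib libraries were nearly equal and more than 2-fold above each control library, with a log2 fold change of 1.29 ± 0.13 (adjusted p = 1.29e-05) and 0.78 trend-removed (adjusted p = 6.61e-05). ISG20, an exonuclease that degrades RNA, had 13.9, 14.5 and 15.1 CPM with talazoparib, against 6.30, 6.11 and 7.60 CPM in control libraries. It rose by 1.12 ± 0.13 (adjusted p = 3.86e-05), and by 0.90 trend-removed (adjusted p = 9.44e-05). IFI35, a leucine-zipper protein of the cytosol, had 16.1, 19.4 and 16.7 CPM with talazoparib, against 10.1, 7.74 and 7.70 CPM in control libraries. Its log2 fold change was 1.03 ± 0.14 (adjusted p = 9.91e-05), and 0.51 trend-removed (adjusted p = 0.0014). MX1, the dynamin-like GTPase that blocks influenza virus, had 3.75, 3.40 and 3.02 CPM with talazoparib, against 1.73, 2.31 and 1.94 CPM in control libraries. It rose by 0.76 ± 0.20 (adjusted p = 0.00593), and by 0.74 trend-removed (adjusted p = 0.00612). IFI27 stayed at 0.417 to 0.611 CPM with talazoparib and 0.487 to 0.508 CPM in control libraries, with overlapping groups (adjusted p = 0.836). The other genes of the group were too low to test: IFI44 had 5, 1 and 0 counts with talazoparib and none in control libraries, IFI44L had 1 count in all, in control replicate 3, and IFI16, a DNA sensor, had 0, 3 and 2 counts with talazoparib and 4, 0 and 1 in control libraries.

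The enzymes that act on double-stranded RNA were lower with talazoparib before the trend was removed. EIF2AK2, the kinase PKR that halts translation, had 37.6, 26.5 and 35.1 CPM with talazoparib, against 45.4, 62.0 and 55.3 CPM in control libraries. All talazoparib libraries were below all control libraries, at -0.71 ± 0.14 (adjusted p = 0.00132). Trend-removed it was higher, at 0.24 (adjusted p = 0.0168). Its GC content was 38.7% and its length 10294 nt. ADAR, which edits adenosine to inosine in double-stranded RNA, had 372, 358 and 308 CPM with talazoparib, against 430, 453 and 452 CPM in control libraries. It fell by 0.36 ± 0.08 (adjusted p = 0.00249), and trend-removed it was at -0.16 (adjusted p = 0.0241).

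The TRIM, SP100 and DTX3L genes gave small changes, 3 of 6 called lower and none higher. Over all genes tested 29.9% were called lower and 26.8% higher. SP100, a nuclear body protein, averaged 8.57 ± 0.409 CPM with talazoparib and 11.6 ± 1.64 CPM in control libraries, at -0.43 (adjusted p = 0.0193). DTX3L, the ubiquitin ligase that partners PARP9, averaged 6.57 ± 0.464 CPM with talazoparib and 8.94 ± 0.557 CPM in control libraries, at -0.45 (adjusted p = 0.0152). TRIM5, which targets retroviral capsids, was at -0.28 (adjusted p = 0.047). None of these 3 passed trend-removed, at 0.27 for SP100, 0.018 for DTX3L and 0.17 for TRIM5. The SP100 call was lost without talazoparib replicate 1 (-0.39), control replicate 2 (-0.36) or control replicate 3 (-0.47), and the DTX3L call without talazoparib replicate 1 (-0.41) or control replicate 2 (-0.43). The TRIM5 call was lost without talazoparib replicate 1 (-0.26) or 2 (-0.21) or control replicate 2 (-0.32) or 3 (-0.27). TRIM25, the ligase that activates the RNA sensor RIG-I, had 178, 189 and 159 CPM with talazoparib, against 158, 147 and 154 CPM in control libraries. It was not called (0.20, adjusted p = 0.0534), but rose trend-removed, by 0.22 (adjusted p = 0.00719). TRIM21, an antibody receptor of the cytosol, and SP110, a nuclear body relative of SP100, were not called, at 0.29 (adjusted p = 0.0906) and -0.27 (adjusted p = 0.197).

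LGALS3BP, a secreted glycoprotein that binds galectins, showed the largest change of the tested genes. It had 7.81, 8.16 and 6.74 CPM with talazoparib, against 1.85, 1.65 and 1.92 CPM in control libraries. Each talazoparib library was more than 3-fold above each control library. The log2 fold change was 2.06 ± 0.17, or 4.18-fold (adjusted p = 7.64e-06), and trend-removed 1.59 (adjusted p = 1.41e-05). Leaving out any 1 library gave values from 1.97 to 2.14. PLSCR1, a membrane lipid scramblase, had 18.7, 17.7 and 18.4 CPM with talazoparib, against 19.2, 20.6 and 18.5 CPM in control libraries, with overlapping groups (-0.091, adjusted p = 0.483). Trend-removed it was higher, by 0.42 (adjusted p = 0.00621). CXCL10, a T-cell chemokine induced by interferon gamma, had 1 count with talazoparib and 1 in control libraries.

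On the FPKM scale, which divides by gene length and library total and so allows genes to be set side by side, levels spanned a wide range. ISG15 averaged 51.0 ± 2.05 FPKM with talazoparib and 27.9 ± 2.63 FPKM in control libraries, and ADAR 47.2 ± 3.73 FPKM with talazoparib and 64.0 ± 3.53 FPKM in control libraries. ADAR was above ISG15 in every control library and in talazoparib replicate 1, where they had 50.6 and 50.4 FPKM, and below it in the other talazoparib libraries. TRIM25 and IFNGR2 came next, at 29.7 FPKM each with talazoparib, closer to each other than their spread, and at 27.3 and 24.3 FPKM in control libraries. Among the genes with low levels, OASL averaged 0.604 ± 0.124 FPKM with talazoparib and 0.250 ± 0.0768 FPKM in control libraries, and MX1 0.565 ± 0.0539 FPKM with talazoparib and 0.351 ± 0.0611 FPKM in control libraries. Lower still were IFIT2, at 0.318 FPKM with talazoparib and 0.252 FPKM in control libraries, and IFIT3, at 0.288 FPKM with talazoparib and 0.208 FPKM in control libraries, and below them the 8 untested genes. The levels summed over the 45 genes were 330.5 to 345.6 FPKM with talazoparib and 295.9 to 302.4 FPKM in control libraries.

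**Figure D3:**
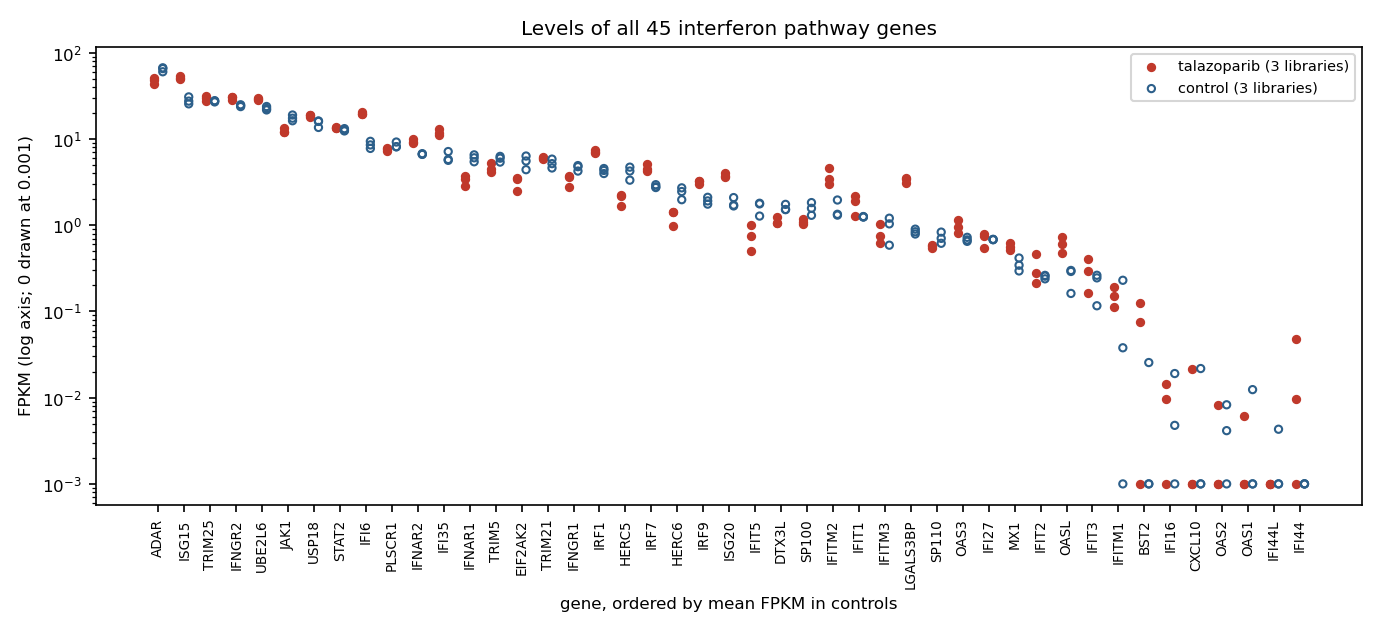
FPKM (y axis, log scale, with 0 drawn at 0.001) of all 45 genes, ordered along the x axis by their mean in control libraries, with 1 point per library: filled red for talazoparib and open blue for control. ADAR and ISG15 are at the left, and the 8 genes with too few counts to test at the right.

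GC content ran with the direction of change among these genes as it did among all genes. The 17 genes that rose had a median GC content of 55.0% (42.2% to 66.8%) and a median length of 2212 nt. The 11 that fell had a median of 43.2% (37.4% to 49.5%) and 5550 nt. Over the 37 tested genes, Spearman's rho between log2 fold change and GC content was 0.68, against 0.69 over all genes. Trend-removed it was 0.14, where a low value follows from the removal itself. These genes come from the same 6 libraries and are not independent, so the values are given as a description. Trend-removed, IFNGR2, IRF7, USP18 and UBE2L6 lost the higher call. IFNAR1, IFNGR1, JAK1, TRIM5, SP100 and DTX3L lost the lower call. STAT2, IFIT2, TRIM25 and PLSCR1 were then higher, and EIF2AK2 passed from lower to higher.

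**Figure D4:**
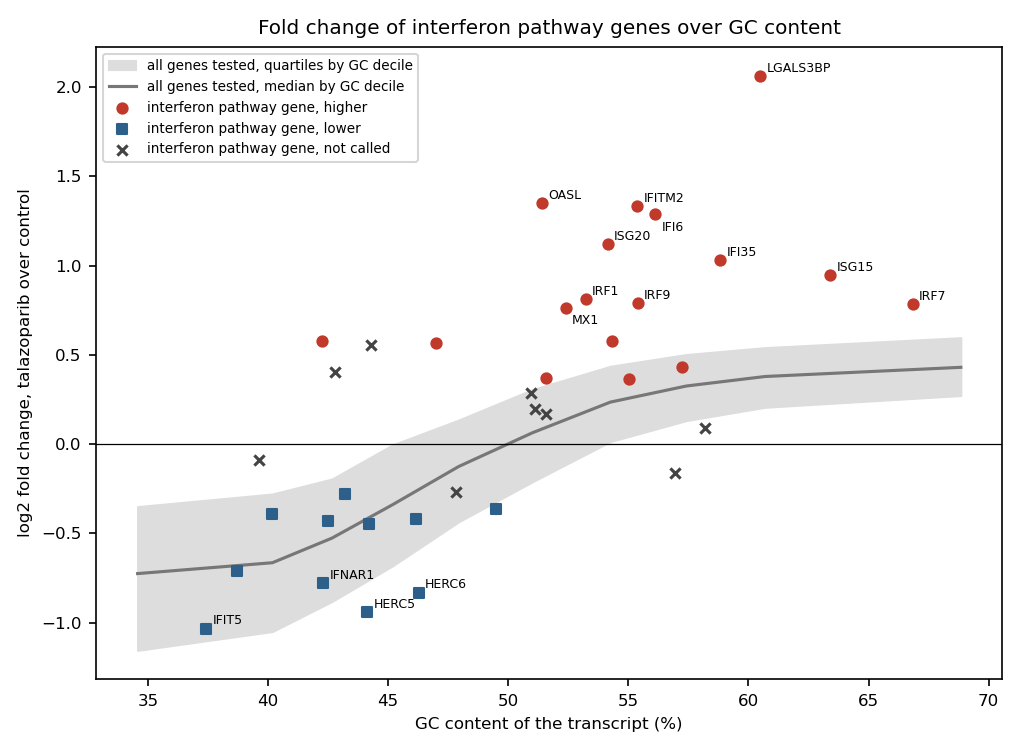
Log2 fold change of talazoparib over control (y axis) against the GC content in percent (x axis) of each tested gene, where colour and symbol give the call. The grey line and band are the median and quartiles of all tested genes in each decile of GC content. LGALS3BP, IFI6 and ISG20 lie above the medians of genes with like GC content, and HERC5 and IFIT5 below.

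Other genes of the pathway, from a list of 50 of which 48 were in the table, moved in both directions as well: of the 36 with enough counts, 15 rose, 11 fell and 10 were not called, and the median was 0.26. The shares over all genes are 26.8% higher and 29.9% lower, so that the falls were about as frequent as among all genes. Trend-removed, 15 rose and 6 fell, against 22.0% and 22.2% of all genes. Of the immunoproteasome subunits, PSMB8 rose to 21.4 ± 1.35 CPM with talazoparib, against 9.01 ± 0.158 CPM in control libraries (1.25 ± 0.11, adjusted p = 1.04e-05), and PSMB9 rose to 4.40 ± 0.237 CPM with talazoparib, against 1.69 ± 0.172 CPM in control libraries (1.38 ± 0.18, adjusted p = 7.40e-05). PSMB10, the third such subunit, named after its values were seen, was not called, at 0.27 (adjusted p = 0.104), and trend-removed it was lower, at -0.32 (adjusted p = 0.0115). PARP10, a mono-ADP-ribosyltransferase, rose to 7.73 ± 0.143 CPM with talazoparib, against 2.35 ± 0.864 CPM in control libraries (1.72 ± 0.22, adjusted p = 6.25e-05). PML, which organises nuclear bodies with SP100, rose by 0.60 ± 0.08 (adjusted p = 0.000105). Trend-removed, PSMB8, PSMB9, PARP10 and PML also rose, by 0.83, 0.96, 1.28 and 0.50. The phosphatases PTPN11 and PTPN2, which act on this pathway, fell by 1.09 ± 0.12 (adjusted p = 3.05e-05) and 0.71 ± 0.10 (adjusted p = 0.00013), and trend-removed they were at -0.44 (adjusted p = 8.61e-05) and -0.08 (adjusted p = 0.392).

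The kinases JAK2 and TYK2, chosen after their values were seen, went opposite ways. JAK2 averaged 1.29 ± 0.385 CPM with talazoparib and 3.82 ± 0.742 CPM in control libraries (-1.57 ± 0.25, adjusted p = 0.000248; trend-removed -0.74, adjusted p = 0.0201). TYK2 averaged 161 ± 7.25 CPM with talazoparib and 118 ± 3.72 CPM in control libraries (0.45 ± 0.07, adjusted p = 0.000258; trend-removed 0.13, adjusted p = 0.0245). Another 12 of the 48 genes were too low to test, RSAD2, CMPK2, GBP1 and TNFSF10 among them, with at most 8 counts in any library. Of 22 interferon genes listed, 4 had a row and the others were not analysed here: IFNB1 had 1 count, in talazoparib replicate 3, IFNE had 9 counts, all in control replicate 2, and IFNL1 and IFNL3 had none.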

How the data were processed

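RNA came from TRIzol extraction and libraries from the VAHTS Universal V6 kit, per the labels' protocols. HISAT2, HTSeq, Cufflinks, Trimmomatic and GRCh38 are named in the submitters' processing notes. Tool versions, gene annotation and strandedness were not given in the sources used here. Whole-number counts per gene and an FPKM table were deposited by the authors. Each deposited FPKM equals the count over gene length and library total: the implied lengths were whole within 0.01 nt for 99.95% of 21065 genes, so FPKM adds no measurement.

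Counts were filtered with filterByExpr (minimum count 10), scaled by TMM and tested with edgeR 4.0.16 (R 4.3.3), a robust quasi-likelihood test of talazoparib against control without a replicate term. P-values were adjusted by the Benjamini-Hochberg method over all 14452 genes tested. CPM of single genes uses TMM-scaled library sizes, and CPM summed over marker lists uses total counts. The SE is the absolute log2 fold change over the square root of F. To remove trends, each library's deviation in log2 CPM (prior count 2) from the gene mean over GC content of the longest GENCODE release 29 transcript and log2 length was fitted by natural splines (5 degrees of freedom) and used as an offset; 94.9% of tested genes had both values. Simulated data tested the scripts. DESeq2 1.42.0, limma 3.58.1, other scalings and filters, a replicate block and each library's removal were alternatives.

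The genes and lists were chosen with earlier results of these data known. Genes called with a log2 fold change of at least 0.5 in size, receptors and transcription factors are described in full, and of the other pathway genes the 6 with the smallest adjusted p; others are named as chosen later.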

Additional observations from a re-analysis of the deposited data

How the results depend on the processing

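Over 21 alternatives, 14 to 19 genes rose, against 17. Falls numbered 11, and 4 with the GC and length trend removed, 4 with GC alone, 5 with length alone, 7 to 11 with 1 library left out, and 9 to 11 under the alternatives that keep the trend and all libraries. The median of 0.37 moved to 0.10 on log2(FPKM + 1), 0.080 there without a filter, and 0.22 with the length trend removed. Other pathway genes that fell numbered 11, and 6, 7 and 6 with the GC and length, GC alone and length alone trends removed, 9 to 11 with 1 library left out, and 10 or 11 under the alternatives that keep the trend and all libraries. DESeq2 and limma-voom changed no call of the 37 genes. Of all values of single genes over the alternatives, 682 were counted as unchanged, 59 as having lost a call, 13 as having gained one and 20 as having changed sign. Some sign changes of genes that were not called are among the 682. With 1 library left out, IFITM3 reached 0.012 and IFI27 -0.022. With the GC and length trend removed, SP110 was at 0.028 and IFI27 at -0.50.

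Signs turned with the GC and length trend removed for IFNGR1 (0.17), UBE2L6 (-0.060), EIF2AK2 (0.24), TRIM5 (0.17), SP100 (0.27), DTX3L (0.018) and PLSCR1 (0.42). They also turned for SP110 (0.028) and IFI27 (-0.50), which were called neither before nor after the removal. With GC alone the signs that turned included those of IFNGR1 (0.29), EIF2AK2 (0.024), TRIM5 (0.22), SP100 (0.13) and PLSCR1 (0.62). With length alone they included that of ADAR (0.024). The cause was not tested.

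Same-numbered libraries showed no sign of pairing: their deviations correlated at -0.09, -0.17 and 0.00, and no library correlated best with its own number. These deviations still held the trend over GC content, and whether replicate numbers mark a shared batch was not tested. With the replicate number as a block, 7580 genes were called, against 8200, 17 of the described genes rose and 10 fell, the median was 0.36, and 15 other pathway genes rose and 10 fell. The block with the GC and length trend removed called 5139 genes, with 3 falls among the described genes and 6 among the other pathway genes. The signs that turned there included those of IFNGR1 (0.17), UBE2L6 (-0.060), EIF2AK2 (0.23), TRIM5 (0.17), SP100 (0.27), DTX3L (0.019) and PLSCR1 (0.41). The 8 untested genes had at most 6 counts in a library.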
